A study of Mus musculus with 9 samples.

Results

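The respiratory chain subunits encoded in the nucleus are the proteins that, together with the few subunits made inside the organelle, build complexes I to V of the inner mitochondrial membrane. They were taken by name from the deposited gene table: every gene whose symbol begins with Nduf followed by a, b, c, s or v and a digit, the 4 Sdh genes, and every symbol beginning with Uqcr, Cox4 to Cox8 or Atp5, without names ending in -ps. The rule took 93 of 35112 genes, of which 83 were protein coding and 10 carried a pseudogene-type annotation. The 6 names left out for their ending were Ndufa12-ps, Cox5b-ps, Ndufb1-ps, Atp5pb-ps, Ndufs5-ps and Atp5l2-ps, and none of them was called in any comparison. The data were RNA sequencing of tissue labelled brain from wild type mice of the C57BL/6 strain, 3 groups of 3 separate animals, drawn at random from randomly divided mice. The sham group was taken 72 hours after a control treatment, the ICH group 72 hours after intracerebral haemorrhage (bleeding into the brain), and the ICH+P7C3-A20 group 72 hours after haemorrhage with the aminopropyl carbazole P7C3-A20. The labels do not give the brain region, the dose, the ages or the sexes. Libraries are named by group and replicate number, so that ICH 2 is the second ICH mouse.

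Complex I (NADH dehydrogenase) and complex II (succinate dehydrogenase) feed electrons into the chain, complex III passes them to cytochrome c, and complex IV (cytochrome c oxidase) hands them to oxygen. The proton gradient that complexes I, III and IV build drives complex V, the ATP synthase. Complexes other than II have core subunits that carry the catalysis and accessory subunits that surround them, and all 4 subunits of complex II are counted here as core. Several complex IV subunits exist as a common form and a tissue-restricted form. Neurons depend on this chain for most of their ATP, and genes of the chain are known targets of the transcription factors NRF1, GABP, YY1 and ERR.

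The 5 promoter stretches are printed here because they belong to members that the results turn on: Cox6b2 and Ndufv3, which rose after haemorrhage, Cox6a1 and Cox8a, the most abundant members, and Atp5g3, the leading gene of the ATP synthase c subunit in sham. Each is the longest run of the 250 bases before the RefSeq start (GRCm38.p6) that lies in no annotated exon, on the gene's own strand, 5′ to 3′, in lower case with motif matches in capitals. They lie at chr7:4753095-4753225 (minus strand), chr17:31519981-31520114 (plus), chr5:115348982-115349129 (minus), chr19:7217617-7217866 (minus) and chr2:73911327-73911576 (minus), in the order printed.
Cox6b2: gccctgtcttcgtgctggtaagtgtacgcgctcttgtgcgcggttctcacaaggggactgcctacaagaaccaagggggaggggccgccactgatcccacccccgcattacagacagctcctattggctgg
Ndufv3: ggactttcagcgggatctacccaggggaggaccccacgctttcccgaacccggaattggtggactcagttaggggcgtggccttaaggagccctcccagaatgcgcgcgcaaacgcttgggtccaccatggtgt
Cox6a1: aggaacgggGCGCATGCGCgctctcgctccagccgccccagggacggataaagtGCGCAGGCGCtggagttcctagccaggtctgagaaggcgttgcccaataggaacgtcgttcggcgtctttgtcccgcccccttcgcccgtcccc
Cox8a: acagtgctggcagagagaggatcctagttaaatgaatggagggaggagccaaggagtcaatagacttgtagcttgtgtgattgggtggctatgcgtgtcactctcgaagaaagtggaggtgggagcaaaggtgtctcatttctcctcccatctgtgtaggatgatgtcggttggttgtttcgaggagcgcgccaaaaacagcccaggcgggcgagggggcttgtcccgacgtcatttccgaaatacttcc
Atp5g3: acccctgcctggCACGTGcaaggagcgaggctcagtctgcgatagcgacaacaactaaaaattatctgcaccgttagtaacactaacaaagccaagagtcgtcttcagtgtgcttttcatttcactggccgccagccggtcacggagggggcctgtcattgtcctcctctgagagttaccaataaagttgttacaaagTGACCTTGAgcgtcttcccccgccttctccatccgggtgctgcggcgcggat
The capitals in Cox6a1 mark 2 matches to the NRF1 motif, which is GCGCA and GCGC with 1 base of any kind between them. The capitals in Atp5g3 mark CACGTG, which holds the HIF motif ACGTG on both strands with the matches overlapping, and the ERR motif TCAAGGTCA on the opposite strand. The printed Cox6b2, Ndufv3 and Cox8a stretches hold none of the motifs searched, which says only that these letters are not in these bases. In the 300-base windows described next, Cox8a has 2 ETS/GABP matches, Ndufv3 1 HIF match, Cox6a1 1 ETS/GABP match and Atp5g3 1 NRF1 match outside the printed stretch.

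RefSeq windows of 300 bases (250 before and 50 after the start) were found for 68 of the 93 members and were searched on both strands, each window being counted once per motif. NRF1 motifs stood in 16 members (23.5%), against 8.43% of 14025 tested genes with a window and 4.82% of all 27025 genes. The ETS/GABP motif CCGGAAG also stood in 16 members (23.5%), against 14.7% of tested genes and 9.14% of all. The YY1 motif AAGATGGC was present in 9 members (13.2%), against 3.87% of tested genes and 2.87% of all. The ERR motif stood in 2 members (2.94%), with 0.321% of tested genes and 0.407% of all, and the short HIF motif in 17 (25.0%), with 23.9% and 19.6%. These shares describe letters in windows and were not tested as binding sites.

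Libraries held 51537047 to 63324728 estimated counts, so that 3 counts in a library equal 0.0455 to 0.0625 CPM (the count scaled to the library's TMM-adjusted total), a limit that covers counting error only. None of the 93 members was at 0 in all libraries and 86 were detected in every library. The filter on low counts kept 87 members for testing, 82 protein coding and 5 pseudogene-type. The 6 left untested were Cox7b2, a testis-type complex IV form with 29 counts over all libraries, and the pseudogene-type Atp5l-ps1, Uqcrh-ps2, Atp5l-ps2, Ndufa11b and Uqcrh-ps1 with 39, 13, 8, 5 and 2 counts. Pan-neuronal marker genes, 14 in number, summed to between 803.1 and 1518 FPKM (a fragment count divided by transcript length and by library total) in every library, in keeping with the labelled tissue. The 13 mitochondrially encoded subunits took 15.8%, 15.4% and 8.52% of counts in sham 1, 2 and 3, 13.6%, 14.8% and 9.08% in ICH 1, 2 and 3, and 16.4%, 9.7% and 17.6% in ICH+P7C3-A20 1, 2 and 3. Sham 3, ICH 3 and ICH+P7C3-A20 2 were thus the lowest of their groups, and results that rest on them are given with and without them.

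Most of the chain was expressed at high levels. By FPKM, which allows comparison between genes, 71 members averaged 10 or more over all libraries and 5 averaged 100 or more. Those 5 were the complex IV subunits Cox8a (241 FPKM), Cox6a1 (212) and Cox4i1 (144) and the ATP synthase beta and alpha subunits Atp5b (158) and Atp5a1 (147), which form its catalytic head. Median levels of protein-coding members lay close together, at 22.9 FPKM in complex I, 27.9 in complex II, 36.5 in complex III, 33.5 in complex IV and 26.6 in complex V. The low end was held by restricted forms: Cox7b2 (0.081 FPKM), the muscle and brown fat forms Cox8b (0.43) and Cox7a1 (0.944), Cox4i2 (1.57), Cox6b2 (1.92) and Ndufa4l2 (3.70). The muscle form Cox6a2 was higher than these, at 7.01 FPKM. Members lay on 19 chromosomes, 3 of them on X.

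**Figure D1:**
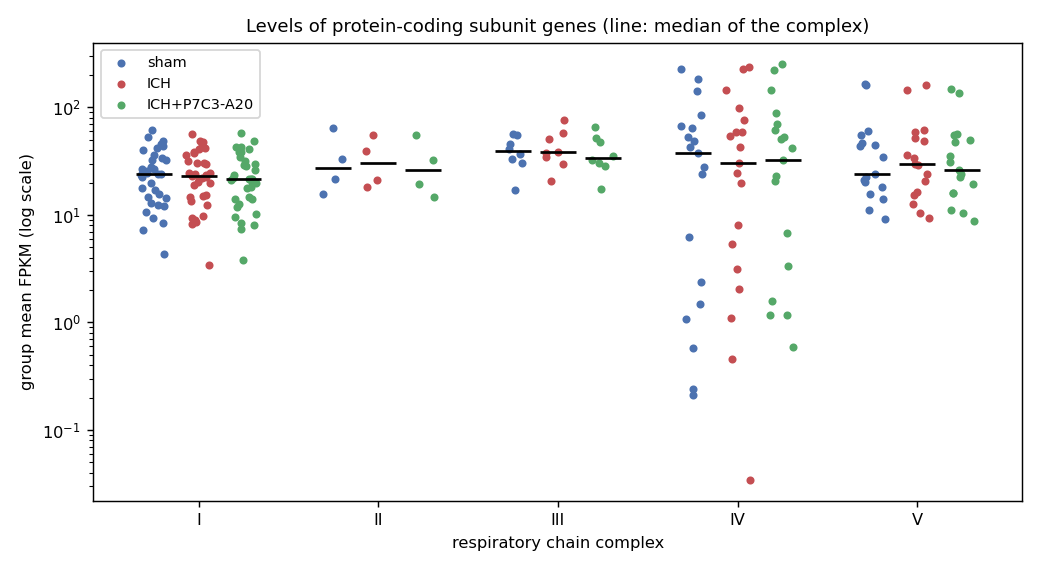
Mean FPKM of each protein-coding respiratory chain gene in sham, ICH and ICH+P7C3-A20 (n = 3 each), by complex, on a log axis, with a line at the median. The 3 groups overlie one another in each complex, from Cox8a and Cox6a1 at the top to the restricted complex IV forms at the bottom, and Cox7b2 in ICH+P7C3-A20, at 0, cannot be drawn on this axis.

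ICH against sham asked how haemorrhage altered these transcripts. Of 87 tested members 3 rose and none fell: Cox6b2 and Ndufa4l2, low-level alternative forms of complex IV subunits, by more than the 1.5-fold band used here, and Ndufv3, an accessory subunit of complex I, by 1.23-fold. Calls are edgeR quasi-likelihood tests with Benjamini-Hochberg adjustment over all 21900 genes at an adjusted p under 0.05, and 26.0% of all genes were called (15.6% higher, 10.4% lower), against 3.45% of members. For the count of 0 members lower by edgeR, DESeq2 gave 2 (Sdha and Ndufs1), and 12 members in either direction had an unadjusted p under 0.05 (13.8%, against 36.6% of all genes). DESeq2 called 4 members higher, the same 3 and Atp5g2, where it called 17.3% of all genes higher and 13.9% lower. On quantile-normalized values 47.1% of all called genes were higher rather than the 60.0% of edgeR.

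The fitted changes of the chain were small. The median log2 change of tested members was -0.03 (interquartile range -0.18 to 0.14), against 0.00 over all genes (-0.35 to 0.50). Within 1.5-fold lay 82 members (94.3%), against 63.4% of all genes, and all 71 members with a mean of 10 FPKM or more, against 75.3% of the 3760 genes at that level. Changes were above 0 in 37 members (42.5%), against 50.2% of all genes. At 10 FPKM or more they were above 0 in 29 of 71 members (median -0.04) and in 1571 of 3760 genes (-0.09), so the shares were alike there. Libraries of ICH and sham did not overlap in 17 members, 8 higher and 9 lower (19.5% in all), against 42.1% of all genes (23.3% higher, 18.8% lower).

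**Figure D2:**
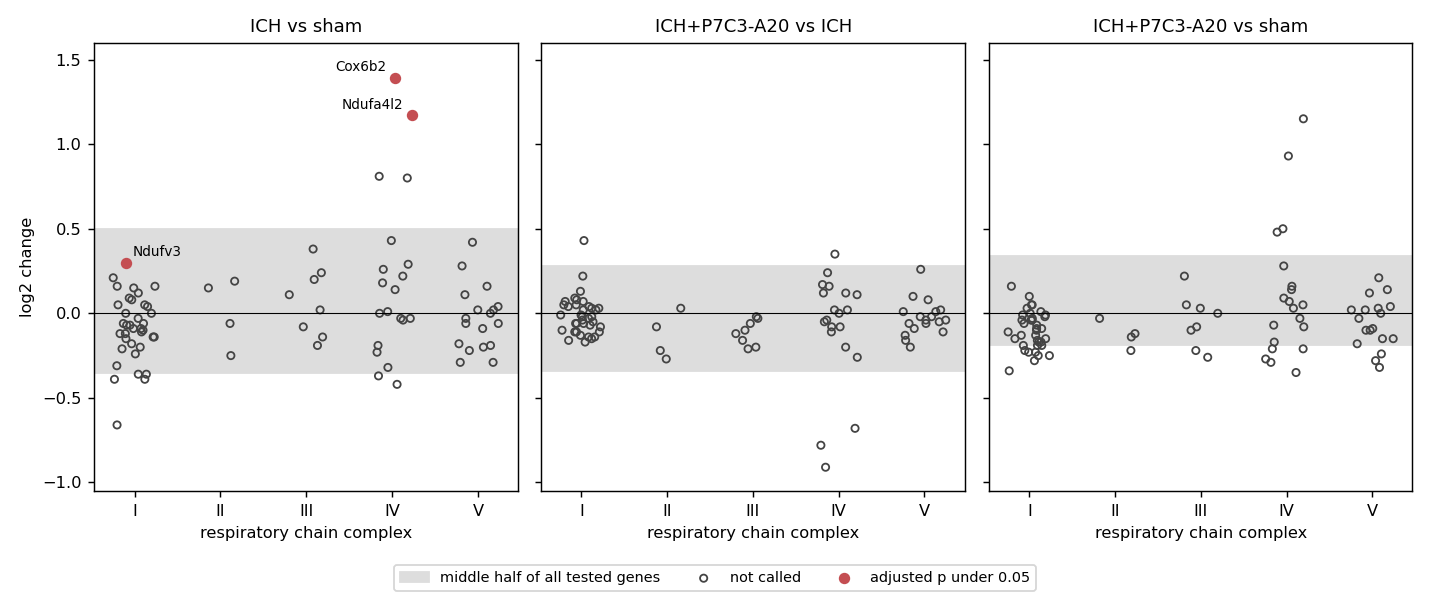
Fitted log2 changes of the tested respiratory chain genes by complex in the 3 comparisons, with the interquartile range of all tested genes as a grey band and genes at an adjusted p under 0.05 in red. Red points appear only in ICH against sham, where Cox6b2 (1.39), Ndufa4l2 (1.17) and Ndufv3 (0.30) lie above 0.

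Cox6b2 (ENSMUSG00000051811, chr7:4751792-4753094, minus strand) is the testis-enriched form of the subunit that otherwise comes from Cox6b1 and faces the intermembrane space. It stood at 1.68, 2.15 and 0.758 CPM in sham 1, 2 and 3, at 3.83, 3.43 and 4.78 in ICH 1, 2 and 3, and at 2.1, 2.6 and 1.68 in the treated mice. All ICH mice were above all mice of both other groups, which overlapped each other. The rise from 1.53 ± 0.709 to 4.01 ± 0.693 CPM (SD, n = 3) was 2.63-fold, a log2 change of 1.39 ± 0.37 (standard error; edgeR adjusted p = 0.0185). It was called in 20 of 22 alternative settings, and not without ICH 3 (1.25, edgeR adjusted p = 0.069) nor without sham 3, ICH 3 and ICH+P7C3-A20 2 together (0.92, 0.0836). No other transcript shared long sequence with it (at least 150 bases at 95% identity), and its neighbour Kmt5c, 4278 bases away, had a log2 change of 0.34 (edgeR adjusted p = 0.145). Il11, 19279 bases away on the same strand and at a mean of 0.196 FPKM, rose (2.04, edgeR adjusted p = 0.0479).

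Ndufa4l2 (ENSMUSG00000040280, chr10:127514967-127517053, plus strand) is the hypoxia-inducible relative of Ndufa4, a protein first assigned to complex I and now counted with complex IV. Its levels were 2.78, 3.53 and 3.0 CPM in sham 1, 2 and 3, then 7.83, 8.89 and 4.3 in ICH 1, 2 and 3, and 2.52, 4.46 and 6.16 in ICH+P7C3-A20 1, 2 and 3. ICH did not overlap sham, but ICH 3 lay near it, and the treated mice spread over both groups. The mean went from 3.1 ± 0.386 to 7.01 ± 2.4 CPM (SD, n = 3), or 2.26-fold (log2 change 1.17 ± 0.35, edgeR adjusted p = 0.0316). The call held in 16 of 22 alternatives and was lost without each of sham 1, 2 and 3, ICH 1 and ICH 2 (edgeR adjusted p = 0.0558 to 0.119) and on quantile-normalized values (limma, 0.0649). Shmt2 lies on the opposite strand 70 bases away, overlaps it by 32 bases in GENCODE M21 and rose as well (log2 change 1.03, edgeR adjusted p = 3.91e-05). The strand setting of the counting is not given in the sources used here.

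Ndufv3 (ENSMUSG00000024038, chr17:31520115-31531331, plus strand) encodes the smallest subunit of the NADH-binding module of complex I. Sham 1, 2 and 3 held 42.9, 43.6 and 36.0 CPM, ICH 1, 2 and 3 held 50.4, 51.1 and 49.4, and ICH+P7C3-A20 1, 2 and 3 held 46.5, 43.0 and 47.3. The ICH mice were close together and above all others. The mean went from 40.9 ± 4.19 to 50.3 ± 0.842 CPM (SD, n = 3; log2 change 0.30 ± 0.10, edgeR adjusted p = 0.048). This call held in 5 of 22 alternatives. Over all 22 the log2 change stayed between 0.22 and 0.35 and the adjusted p ran from 0.00892 to 0.133. Its neighbour Wdr4, 141 bases away on the opposite strand, had a log2 change of 0.02 (edgeR adjusted p = 0.957). Gm50103, 5968 bases away on the same strand and at a mean of 0.646 FPKM, rose (1.34, edgeR adjusted p = 0.0298).

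Among the other members of complex I, 36 of 37 tested did not pass. The 7 core subunits, which carry the flavin and the iron-sulphur clusters and include Ndufs1 and Ndufv1, all had fitted changes below 0, with a median of -0.20, against -0.04 in the 28 accessory subunits, 17 of which were below 0. Ndufs1, the largest of these, held 106, 111 and 140 CPM in sham 1, 2 and 3, 89.7, 86.0 and 101 in ICH 1, 2 and 3, and 92.9, 109 and 92.1 in ICH+P7C3-A20 1, 2 and 3. Each ICH mouse was below each sham mouse, by a log2 change of -0.36 ± 0.13 that missed the threshold (edgeR adjusted p = 0.0581). Part of its transcript, 324 bases, is shared with Ino80dos. The accessory subunit Ndufs4, in which loss of function causes Leigh syndrome, held 34.4, 35.7 and 46.5 CPM in sham and 28.4, 26.2 and 34.2 in ICH (log2 change -0.39 ± 0.16, edgeR adjusted p = 0.0974). Without sham 3, the sham mouse with the highest Ndufs1 and Ndufs4, 6 of the 7 core changes were below 0 and their median was -0.11.

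Complex II, the one complex with no mitochondrially encoded subunit, had 4 members, and its catalytic flavoprotein and its membrane anchors lay on opposite sides of 0. Sdha, the flavoprotein, held 312, 320 and 319 CPM in sham 1, 2 and 3, 266, 264 and 272 in ICH 1, 2 and 3, and 270, 288 and 261 in ICH+P7C3-A20 1, 2 and 3. Both haemorrhage groups lay wholly below sham, with little spread. The change of -0.25 ± 0.09 (log2) from 317 ± 4.07 to 267 ± 3.9 CPM (SD, n = 3) had an edgeR adjusted p of 0.0662 and was called by DESeq2 (-0.27, DESeq2 adjusted p = 0.00188). The iron-sulphur subunit Sdhb had -0.06 (edgeR adjusted p = 0.788), and the anchors Sdhc and Sdhd had 0.15 (0.359) and 0.19 (0.289).

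In complex III none of 8 tested members passed, and the median was 0.06. Uqcr10, a small accessory subunit, held 31.6, 43.4 and 43.4 CPM in sham 1, 2 and 3 and 46.2, 47.0 and 60.8 in ICH 1, 2 and 3 (log2 change 0.38 ± 0.16, edgeR adjusted p = 0.107). Uqcrc2, one of the large matrix-facing subunits and counted here as accessory, held 119, 130 and 131 CPM in sham and 110, 104 and 119 in ICH, with every ICH value below every sham value before rounding (-0.19, edgeR adjusted p = 0.154). The Rieske iron-sulphur protein Uqcrfs1 had -0.14 (0.682).

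In complex IV all 6 restricted forms tested had changes above 0, with a median of 0.80, while 3 of the 7 common forms did, with a median of 0.00. The 6 include Cox6b2 and Ndufa4l2, already called in these same mice. Without the filter on low counts Cox7b2 joined them, and 6 of 7 were above 0 and 1 below (median 0.79). The restricted forms, Cox7b2 included, summed to 11.3, 15.93 and 8.598 CPM in sham 1, 2 and 3, 19.69, 24.0 and 17.08 in ICH 1, 2 and 3, and 11.69, 15.0 and 15.85 in ICH+P7C3-A20 1, 2 and 3. The mean sum went from 11.94 CPM in sham to 20.26 in ICH. Within it Cox6b2 went from 1.53 to 4.01 and Ndufa4l2 from 3.1 to 7.01, most of the rise. Beyond Cox6b2 and Ndufa4l2 none passed: Cox7a1 had 0.81 ± 0.47 (edgeR adjusted p = 0.249), Cox4i2, the form linked to low oxygen, 0.43 ± 0.32 (0.38), and Cox6a2 0.29 (0.541). Cox8b, at 0 in sham 1, ICH 1 and ICH+P7C3-A20 3, had 0.80 with an error of 1.66. Without ICH 3, 5 of the 6 were above 0. The median of the 6 ranged from 0.25 on quantile-normalized values (0.38 on log2(FPKM + 1) without that step) to 1.2 without sham 2, and was 0.52 without sham 1.

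None of the 7 common forms passed, and their fitted changes ran from -0.37 (Cox7a2, edgeR adjusted p = 0.295) to 0.26 (Cox6a1). Cox4i1 held 214, 245 and 321 CPM in sham 1, 2 and 3 and 241, 245 and 300 in ICH 1, 2 and 3, and the groups overlapped (log2 change 0.01, edgeR adjusted p = 0.978). Cox6a1, the form of subunit 6A found in most tissues, held 135, 153 and 177 CPM in sham 1, 2 and 3, 182, 189 and 186 in ICH 1, 2 and 3, and 188, 188 and 189 in ICH+P7C3-A20 1, 2 and 3. All 6 haemorrhage mice lay above all sham mice and within a few CPM of one another, whereas sham was spread. The change of 0.26 ± 0.11 did not pass (edgeR adjusted p = 0.0982), but passed without sham 3 (0.36, 0.0181). Leaving out sham 3 gave 5 members higher (Cox6b2, Cox6a1, Atp5g2, Uqcr11 and Atp5k) where 14.7% of all genes were called higher. Cox7a2l, a factor linked to supercomplexes of complexes III and IV, held 84.6, 82.4 and 90.3 CPM in sham and 95.9, 101 and 104 in ICH (0.22 ± 0.09, edgeR adjusted p = 0.0831).

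**Figure D3:**
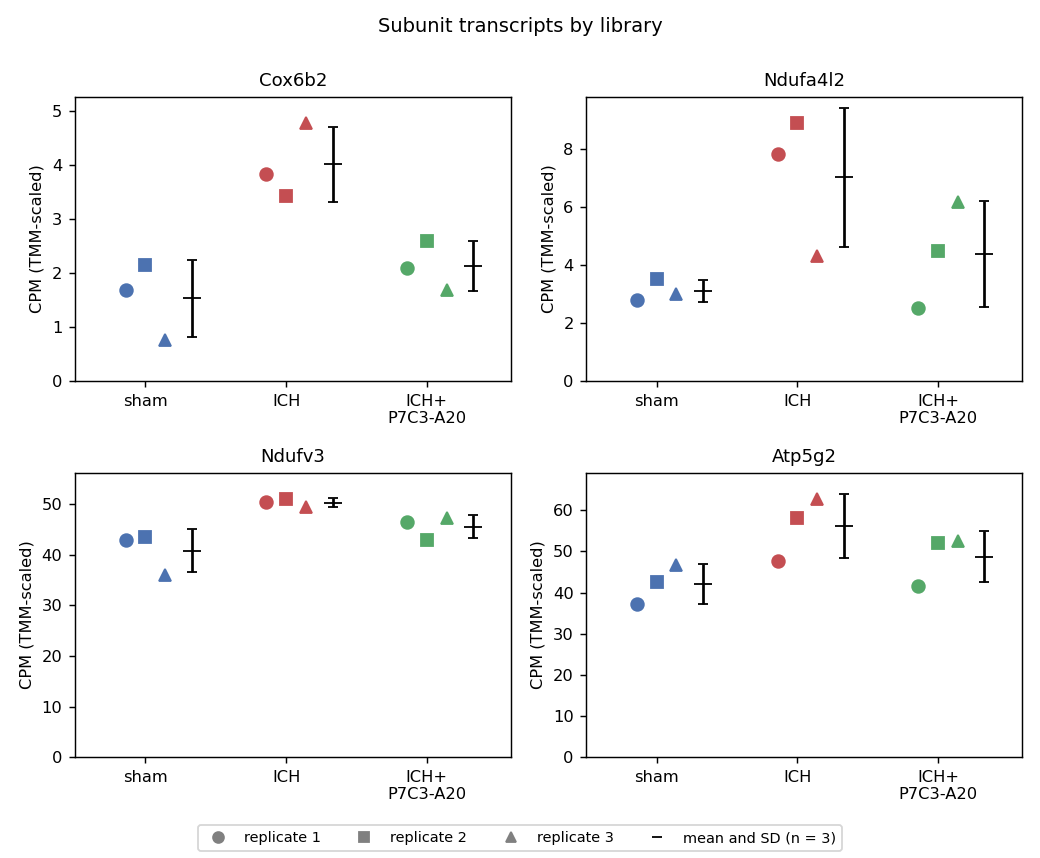
CPM of Cox6b2, Ndufa4l2, Ndufv3 and Atp5g2 in each library, with the group mean and SD (n = 3). ICH lies above sham in all 4 panels without overlap, and ICH+P7C3-A20 means lie between the other 2 group means. The 4 genes are shown for their high levels in these ICH mice, so the lower treated means are no independent observation.

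In complex V none of 18 tested members passed. The 5 subunits of the F1 part, which holds the catalytic head, had changes of 0.00 to -0.20, with 4 below 0. The head subunit Atp5a1 held 582, 607 and 620 CPM in sham and 542, 504 and 533 in ICH (-0.20, edgeR adjusted p = 0.199), without overlap. Atp5b held 777, 847 and 895 in sham and 805, 745 and 816 in ICH (-0.09, edgeR adjusted p = 0.62), with overlap. The member nearest the threshold was Atp5g2 (ENSMUSG00000062683, chr15:102662864-102672352, minus strand), one of 3 genes that encode the same mature c subunit, the proton-carrying ring of the enzyme, with different import sequences. It held 37.1, 42.5 and 46.7 CPM in sham 1, 2 and 3, 47.6, 58.2 and 62.8 in ICH 1, 2 and 3, and 41.6, 52.0 and 52.6 in ICH+P7C3-A20 1, 2 and 3. ICH lay above sham, narrowly at its lowest mouse, and the treated group overlapped both. The change was 0.42 ± 0.14 (edgeR adjusted p = 0.0504), and 8 of 22 alternatives called it.

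The contribution of each gene to the c subunit transcripts was also followed. Atp5g2 supplied 30.5%, 27.8% and 26.2% of the summed FPKM of Atp5g1, Atp5g2 and Atp5g3 in sham 1, 2 and 3, 35.2%, 42.7% and 37.4% in ICH 1, 2 and 3, and 32.3%, 32.3% and 39.9% in ICH+P7C3-A20 1, 2 and 3. Its share was higher in every haemorrhage mouse, treated or not, than in any sham mouse. The mean share was 28.2% ± 2.14 in sham and 38.4% ± 3.89 in ICH (SD, n = 3), a difference of 10.2 percentage points (two-sided exact permutation p = 0.10, the smallest that 3 against 3 allows). Atp5g3 supplied 52.7%, 54.6% and 62.2% in sham and 50.7%, 44.6% and 48.4% in ICH, without overlap, while Atp5g1 overlapped (16.8%, 17.6% and 11.6%, then 14.1%, 12.6% and 14.2%). Atp5g1 shares 411 bases with Gm10039 and Atp5g2 shares 441 with Gm10231, so counts could have been divided among copies. With pseudogene-type copies added, the Atp5g2 share of counts was 22.8%, 21.2% and 22.1% in sham and 28.7%, 33.6% and 30.3% in ICH. Over 36 exact tests on 12 such shares the lowest adjusted p was 0.30.

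**Figure D4:**
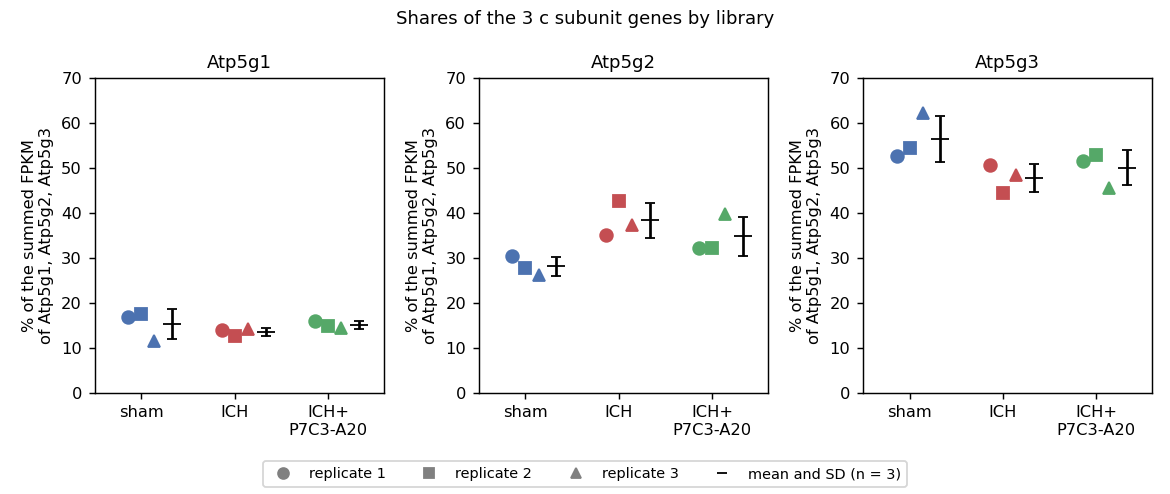
Share of the summed FPKM of the 3 ATP synthase c subunit genes (percent) in each library. The Atp5g2 share lies between 26.2% and 30.5% in sham, between 35.2% and 42.7% in ICH and between 32.3% and 39.9% in ICH+P7C3-A20.

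For paired complex IV forms, Cox6b2 made up 1.92%, 1.82% and 0.499% of Cox6b1 and Cox6b2 FPKM in sham 1, 2 and 3 and 3.48%, 2.59% and 3.09% in ICH 1, 2 and 3. It went to 1.82%, 1.84% and 1.49% in ICH+P7C3-A20, below every ICH mouse. Cox6b2 was called for its high level in these ICH mice, so the lower treated share is a description only. Ndufa4l2 made up 3.52%, 4.23% and 2.93% of Ndufa4 and Ndufa4l2 in sham mice, 9.88%, 11.9% and 4.7% in ICH mice, and 2.98%, 4.72% and 7.91% in treated mice. Cox7a1 made up 1.76%, 2.59% and 0.798% of Cox7a1 and Cox7a2 in sham mice, 3.12%, 4.71% and 2.98% in ICH mice, and 3.74%, 3.81% and 2.55% in treated mice. These 3 forms were minor beside their partners in all libraries. The exact two-sided permutation p for ICH against sham was 0.10 for each, the smallest possible (adjusted 0.30). The shares of Cox4i2, Cox6a2 and Cox8b, the other 3 pairs, overlapped between sham and ICH, and Cox6a2 averaged 3.45% and 3.43%.

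Other genes of mitochondrial energy metabolism gave the setting. None of the 13 mitochondrially encoded subunits passed in ICH against sham (median log2 change -0.20, 0 at an unadjusted p under 0.05 by edgeR and 0 called by DESeq2). Of 46 tested assembly factors none rose and 6 fell (0 and 8 by DESeq2), among them Ttc19, which acts on complex III (-0.72, edgeR adjusted p = 0.0012), and Ndufaf5, which acts on complex I (-0.62, 0.00888), with a median of -0.09. Among 16 enzymes of the citric acid cycle 4 fell and 1 rose (6 and 1 by DESeq2): the ATP-forming succinyl-CoA ligase subunit Sucla2 fell (-0.45, edgeR adjusted p = 0.0106) and its GTP-forming counterpart Suclg2 rose (0.85, 0.00172). Of 19 electron carriers and exporters 2 rose and 1 fell (2 and 5 by DESeq2), with Etfdh at 0.61 (0.0152) and Coq8a, a kinase-like protein of ubiquinone synthesis, at -0.53 (0.0264). Of 16 biogenesis regulators Ppargc1b alone was called by edgeR, at -0.76 (0.027), and 2 were called lower by DESeq2. Of 34 mitochondrial ribosome proteins 2 rose, among them Mrpl13 (0.49, 0.00873), and 1 fell. These counts stand beside the 26.0% of all genes called.

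Markers of cell types moved strongly in the same comparison. Of 14 pan-neuronal genes 10 fell (median log2 change -0.64), of 8 parvalbumin interneuron genes 6 fell (-0.73), all 14 microglia and macrophage genes rose (3.11), 8 of 10 astrocyte genes rose and 1 of 9 oligodendrocyte genes rose. In bulk tissue fewer cells of a type and less RNA per cell cannot be told apart. Beside Ndufa4l2 and Cox4i2, 8 of 12 pericyte and smooth muscle genes rose (median 0.74), with summed levels of 270.5, 299.5 and 261.5 CPM in the sham mice, 502.8, 548.0 and 497.3 in the ICH mice and 332.5, 375.5 and 424.4 in the treated mice. Of 14 hypoxia response genes 6 rose (median 0.36), among them Egln3 (1.86) and Slc2a1 (1.04), with summed levels of 755.8 to 808.3 CPM in the sham mice, 1009 to 1018 in the ICH mice and 778.2 to 871.1 in the treated mice. Striated muscle genes, beside Cox7a1, Cox6a2 and Cox8b, summed to 4.234 to 6.954 FPKM in every library. Of the 10 tested of 15, Tnni2 (2.63) and Des (1.46) rose and Myh7 (-0.63) fell. The part of these markers in the changes of the members was not tested.

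ICH+P7C3-A20 against ICH asked what the compound altered after haemorrhage. No member was called in either direction by edgeR, where 8.74% of all genes were called (2.69% higher, 6.05% lower). By DESeq2 the count was also 0, against 16.1% of all genes, and 3 members (Cox6b2, Sdhc and Cox4i2) had an unadjusted p under 0.05, against 24.3% of all genes. The median log2 change was -0.04 (all genes -0.01), 84 members (96.6%) lay within 1.5-fold (all genes 73.5%), and 32 (36.8%) were above 0 (49.3%). At 10 FPKM or more all 71 members lay within 1.5-fold, against 88.7% of 3760 genes. At that level 25 members and 2034 genes were above 0. Groups did not overlap in 7 members, against 33.6% of all genes. Ndufs6b, a pseudogene-type copy, was the one higher (15.1% of all genes), and Ndufa11, Ndufv3, Sdhc, Sdhd, Cox4i2 and Cox6b2 were lower (18.5%).

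The 3 members that rose after haemorrhage were called for high levels in the same ICH mice, so that a lower treated level is no independent observation, and their treated values are given as a description. Cox6b2, at 2.13 ± 0.464 CPM (SD, n = 3), had a log2 change of -0.91 ± 0.37 from ICH (edgeR adjusted p = 0.153), Ndufa4l2, at 4.38 ± 1.82, had -0.68 ± 0.35 (0.271), and Ndufv3, at 45.6 ± 2.3, had -0.14 (0.439). Cox4i2 stood at 1.12 CPM in each treated mouse (54, 72 and 58 counts), against 1.56, 2.6 and 1.63 in ICH 1, 2 and 3 and 1.15, 1.88 and 1.26 in sham 1, 2 and 3. Counting error at these counts is wider than the spread of the treated values and than their gap to sham 1 (64 counts). All treated mice were below all other mice, and the change from ICH was -0.78 ± 0.32 (edgeR adjusted p = 0.167). Sdhc, a membrane anchor of complex II that binds haem and ubiquinone with Sdhd, held 68.4, 65.0 and 71.9 CPM in ICH and 57.1, 60.4 and 53.0 in treated mice (-0.27 ± 0.11, edgeR adjusted p = 0.159). In the same comparison 12 of 14 microglia and macrophage genes and 2 of 12 pericyte and smooth muscle genes fell, 3 of 14 pan-neuronal genes rose, and of 14 hypoxia genes Slc2a1 fell. DESeq2 called 13 of these microglia and macrophage genes, 4 of the pericyte and smooth muscle genes and 5 of the hypoxia genes lower, and 9 of the pan-neuronal genes higher. The 13 mitochondrially encoded subunits all had fitted changes above 0 (median 0.34), none of them called by edgeR or DESeq2 and 0 at an unadjusted p under 0.05.

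ICH+P7C3-A20 against sham showed what separated treated from uninjured brains, and it shares the sham mice with the first comparison and the treated mice with the second. No member was called by edgeR, where 5.32% of all genes were called (4.58% higher, 0.744% lower), and 5 members had an unadjusted p under 0.05 (18.2% of all genes). DESeq2 called 1 member lower, Sdha (-0.23, DESeq2 adjusted p = 0.022), where 2.52% of all genes were called lower. The median log2 change was -0.08 (all genes 0.03), 85 members (97.7%) lay within 1.5-fold (77.1%), and 28 (32.2%) were above 0 (53.2%). At 10 FPKM or more all 71 members lay within 1.5-fold, against 93.4% of 3760 genes. At that level 21 members and 1707 genes were above 0. Groups did not overlap in 6 members, against 20.4% of all genes: Cox6a1 and Cox7a2l higher (12.6%) and Sdha, Uqcrc2, Cox4i2 and Atp5a1 lower (7.84%).

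Core subunits lay on the low side in both comparisons with sham, which share the sham mice. Of the 17 core subunits (7 of complex I, 4 of complex II, Uqcrfs1 of complex III and 5 of complex V), 16 had changes below 0 in treated against sham mice (median -0.19) and 14 in ICH against sham (-0.14). Leaving out sham 3 made it 14 of 17 with a median of -0.04 in treated against sham mice and 9 of 17 in ICH against sham. With all libraries, 2053 of the 3760 genes of 10 FPKM or more were below 0 in treated against sham mice (median -0.03). In ICH against sham 2189 of them were (-0.09). Of 65 tested protein-coding members outside the core, 39 were below 0 in treated against sham mice (median -0.03). In ICH against sham 31 of these 65 were (0.02). Of the 28 accessory subunits of complex I, 21 were below 0 in treated against sham mice (-0.05), so the low side was not confined to the core. The 7 core subunits of complex I were all below 0 (median -0.19) in treated against sham mice, and none of them was called by edgeR. They were below 0 in all 22 alternatives as well, with a median of -0.08 without sham 3. Genes measured in the same mice, and refits of those mice, are not independent observations, so the shared sign is given as a description. Sdha went from 317 ± 4.07 to 273 ± 13.8 CPM (SD, n = 3; -0.22, edgeR adjusted p = 0.227) and Atp5a1 had -0.24 (0.253). Outside the core count, Uqcrc2 had -0.22 (0.236). On the high side Cox6a1 went from 155 ± 20.7 to 189 ± 0.663 CPM (0.28 ± 0.11, edgeR adjusted p = 0.182). Without sham 3 Cox6a1 was called (0.39, 0.0428), the only member, where 4.55% of all genes were called higher.

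One pattern among the members ran across the groups: most of them were high in the same 3 libraries. In sham 3, ICH 3 and ICH+P7C3-A20 2, 73, 78 and 78 of 87 members were above the mean of the rest of their own group, by median log2 differences of 0.32, 0.20 and 0.24. In the other 6 libraries 7 to 37 members were. These are the libraries with the lowest share of mitochondrially encoded subunits, 8.52% to 9.7% of counts, and members made up 0.751% to 0.784% of counts there, against 0.553% to 0.638% elsewhere. Both are shares of all counts, so a lower mitochondrially encoded share in itself raises the share left to all other genes. Among transcripts of 700 bases or shorter, the 28 protein-coding members were above the rest of the group by median log2 differences of 0.39, 0.29 and 0.31 in the 3 libraries, and 211 other genes of 10 FPKM or more by 0.14, 0.11 and 0.13. Those 211 genes were as high in ICH+P7C3-A20 3 (0.12), the library with the highest mitochondrially encoded share, where the 28 members had -0.17. Of longer transcripts, the 54 members were above by 0.31, 0.17 and 0.20, and 3477 other genes of that level differed by 0.03, -0.03 and -0.03. What sets the 3 libraries apart was not tested.

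**Figure D5:**
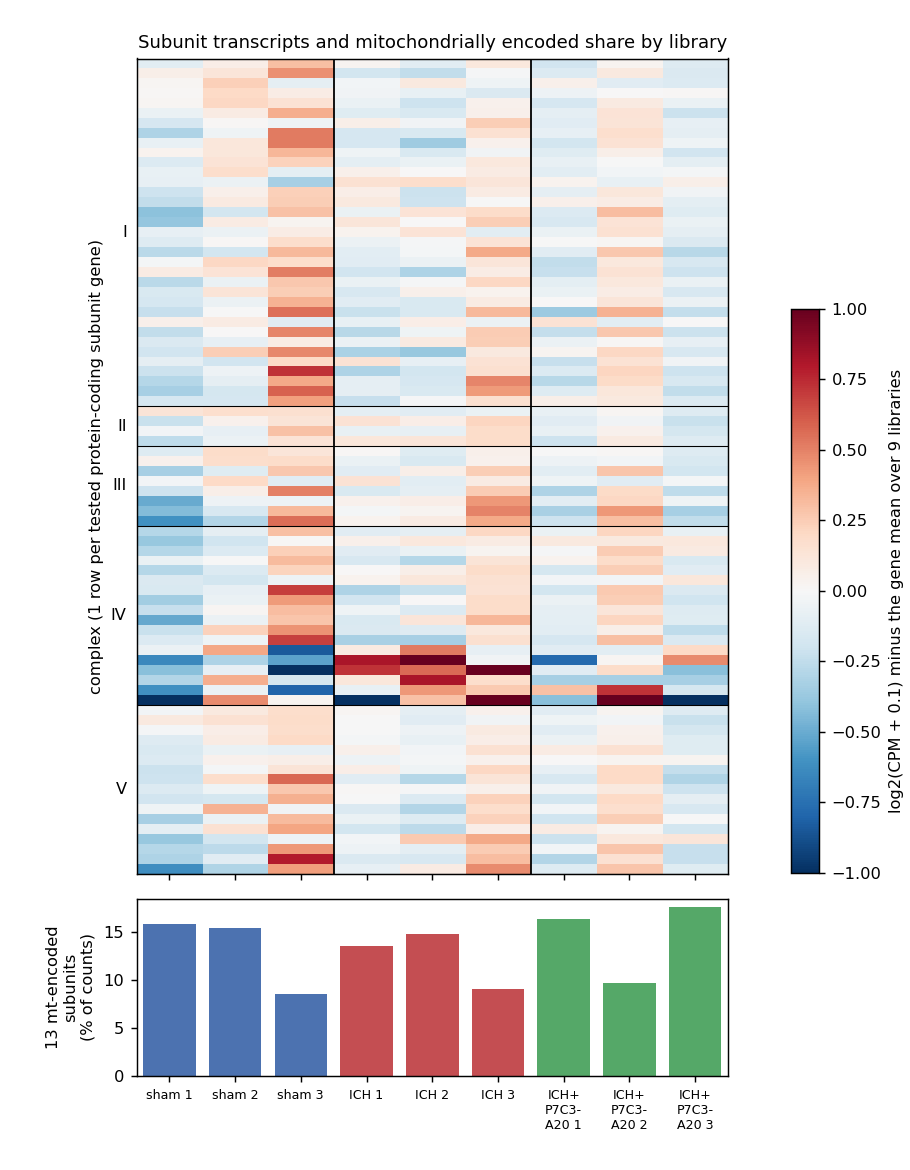
Level of each of the 82 tested protein-coding members in each library, as log2(CPM + 0.1) minus the gene's mean, above bars of the percent of counts taken by the 13 mitochondrially encoded subunits. Sham 3, ICH 3 and ICH+P7C3-A20 2 are high across most genes and have the shortest bars.

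The calls among members depended on how this was handled. With the log2 ratio of mitochondrially encoded to other counts as a covariate, 16 members were called in ICH against sham, 5 higher and 11 lower, where 17.8% of all genes were called higher and 13.7% lower. The 5 were Cox6b2, Ndufa4l2, Ndufv3, Atp5g2 and Uqcr10. The 11 lower included the complex I core subunits Ndufs1 (-0.38, edgeR adjusted p = 0.00196), Ndufs3 (-0.38, 0.0105) and Ndufv1 (-0.23, 0.0344), with Ndufs4 (-0.42, 0.00251), Ndufa9 (-0.25, 0.0225) and Ndufb2 (-0.42, 0.0241). The others were Sdha (-0.25, edgeR adjusted p = 0.0277), the complex IV subunits Cox7a2 (-0.39, 0.00828) and Cox6c (-0.33, 0.0225), and Atp5g3 (-0.31, 0.0318) and Atp5md (-0.30, 0.0467) of complex V. The same covariate gave 1 member higher in treated against ICH, Cox7a2 (0.33, edgeR adjusted p = 0.0466), where 4.31% of all genes were called higher, and 0 in treated against sham, where 7.63% were called.

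Without the 3 libraries, 2 mice a group, 3 of 86 members rose in ICH against sham and none fell, where 12.6% of all genes were called higher and 7.83% lower. They were Ndufa4l2 (1.41, edgeR adjusted p = 0.0472), Uqcr11 (0.50, 0.0429) and Cox6a1 (0.36, 0.0425), so that Ndufa4l2 was called with and without them and Cox6b2 and Ndufv3 were not called without them. No member was called in treated against ICH or in treated against sham, where 4.89% and 2.80% of all genes were. The covariate and the exclusion were both chosen after seeing the data.

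The 5 pseudogene-type members that could be tested (Ndufb4c, Ndufs6b, Cox6c2, Cox7c-ps1 and Atp5k-ps2) had fitted changes below 0 in ICH against sham, -0.03 to -0.66, and none passed. Of all members 44 shared at least 150 bases at 95% identity with another annotated gene, 27 of them with one whose level was at least 10% of their own, so that their counts are uncertain to that degree. Adding 44 pseudogene-type copies to the 23 members they resemble left 3 members called higher and 0 lower in ICH against sham. Cox6b2, Ndufa4l2, Ndufv3, Cox4i2, Cox7a1, Sdha, Ndufs4 and Cox6a1 had no such partner.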

How the data were processed

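RNA with poly(A) tails (RIN above 7, per the labels' protocols) from 9 mouse brains went into strand-marked sequencing libraries. Per the submitters' processing notes the tools were cutadapt (1.9), HISAT2 (2.0.4) and StringTie (1.3.4d). Build, strand setting and counting step: not given in the sources used here. In the 1 table that the authors deposited, each gene has in each library an estimated count (a whole number) and an FPKM value. Levels between genes were read from the deposited FPKM, which correct for transcript length. Tests used the deposited estimated counts as they stand.

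Genes passed filterByExpr at a minimum count of 10 and a minimum total of 15. The main test was edgeR 4.0.16 (R 4.3.3), robust quasi-likelihood with TMM scaling, 1 mean for each of the 3 groups and 6 residual degrees of freedom over 9 libraries. It was two-sided, with Benjamini-Hochberg adjustment over all 21900 genes, and a gene was called at an adjusted p under 0.05. The error of a log2 change is its size over the root of F. Alternatives were DESeq2 1.42.0, limma 3.58.1 on log2(FPKM + 1) and log2(FPKM + 0.1), other scalings and filters, a block by replicate number, and the omission of each library in turn. The covariate, the omission of 3 libraries together and the summing of copies were added after seeing the data. The scripts were first tested on simulated data.

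Members named are those called, the most abundant and the smallest p in each complex, the paired isoforms and the 3 c subunit genes, with up to 4 genes of each list. Some genes that this takes are not reported here. The members and the 14 lists were chosen with earlier results of these data known. Gene positions are as deposited, and 77 of the 93 members have the same position in GENCODE M21 (GRCm38). Shared sequence was searched with blastn 2.17.0 among GENCODE M21 transcripts. Plots used matplotlib 3.10.9 (Python 3.11.15).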

Additional observations from a re-analysis of the deposited data

How the results depend on the processing

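Direction and call held in 1476 of 1601 repeats of single genes' changes (22 alternatives). These repeats pool the named members with named genes of the lists, cell type markers among them, so they do not measure the members alone. In ICH against sham the 3 members called higher became 1 on quantile-normalized values, 5 with the mitochondrially encoded ratio as covariate, and 1 to 5 when each library was left out (1 without sham 1, ICH 2 or ICH 3, 5 without sham 3). The 0 called lower became 1 (Ndufs1) with DESeq2 size factors and with the filter of 1 CPM in 3 libraries, 2 by DESeq2, 3 on quantile-normalized values (Sdha, Atp5a1 and Ndufs6b) and 11 with the covariate. In treated against ICH the covariate gave 1 higher. In treated against sham DESeq2 gave 1 lower, and leaving out libraries gave 0 to 1 higher (1 without sham 3). The cause was not tested in any of these. The members' median log2 change in ICH against sham was 0.10 without sham 3, -0.11 without sham 1 and -0.10 without ICH 3.

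Same-numbered libraries deviated from their group means with correlations of -0.128 to 0.092, and libraries of unlike number with -0.078 to 0.192. No pairing by number was seen, though weak correlations among so few mice cannot exclude it. With the replicate block 3 members were higher in ICH against sham (Ndufa4l2, Cox6b2 and Atp5g2), 0 were lower, and no member was called in the other comparisons.

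Signs turned for some members in ICH against sham. In the main fit Cox4i1, Cox7b and Cox8a were near 0, while Cox6b1 had 0.18, Cox6c -0.32 and Cox8b 0.80. Cox4i1 had -0.01 with DESeq2 size factors, by DESeq2 and with the covariate, -0.07 on quantile-normalized values and -0.11 to 0.19 with libraries left out. Cox7b had 0.02 by limma at both pseudocounts, 0.01 without the 3 libraries, and -0.16 to 0.11 with single libraries left out. Cox8a had 0.06 by limma at both, 0.01 with the block, 0.12 without the 3 libraries, and -0.11 to 0.16 with single libraries left out. Leaving out libraries gave Cox6b1 0.00 to 0.38, Cox6c -0.47 to 0.00 and Cox8b -0.37 to 1.57. In treated against sham Cox6b2 had -0.04 without the 3 libraries. Depth limits Cox8b and the 6 untested members most.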
